A study of Homo sapiens with 12 samples.

Results

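POU2AF1 (ENSG00000110777) encodes a transcriptional coactivator, also called OCA-B or BOB.1, and it was 1 of the 18569 gene IDs in the deposited AlkAniline-Seq data. Its members were the rows that carry this ID, 16 of 842183 positions. The gene was chosen by its AlkAniline-Seq counts, which were lower after METTL1 knockdown, so the difference between the groups in that assay is given as a description with no test. The input libraries were not used in that choice, and differences between them were tested.

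The cells were LNCaP-AI, a castration-resistant prostate cancer line grown under androgen deprivation, which all groups share. They carried a lentiviral hairpin against METTL1 (shMETTL1) or a control hairpin (shscramble), and each group had 3 replicates with an AlkAniline-Seq and an input library apiece, 12 libraries in all. The knockdown rests on a single hairpin in cells kept as a stable line. The gene IDs could not be matched to symbols here, so neither METTL1 nor prostate markers were available to check the labels. The stem of the hairpin, which sets the groups apart, is printed in capitals (5′ to 3′, 21 bases). The study's oligonucleotide list gives a 46-base sequence and marks no stem. The stem was taken here as the start of that sequence that pairs with its end.

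shMETTL1 stem: GGAATGTAGTCCATCTAAACT

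POU2AF1 binds the POU domains of the octamer factors POU2F1 and POU2F2 on DNA and raises transcription from octamer sites. It is known above all from B lymphocytes, where immunoglobulin genes are among its targets and germinal centres depend on it. METTL1, with its partner WDR4, places N7-methylguanosine (m7G) in tRNA and has been described to place it inside mRNA. AlkAniline-Seq cleaves RNA chemically at m7G and sequences the cut ends, so that a modified base appears as reads that pile up at 1 position. The gene lies on chromosome 11, where its nearest protein-coding neighbours by start are POU2AF3, of the same coactivator family, and BTG4. The files give no coordinates, so whether a position lies in an exon, an intron or an untranslated region is not known here.

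Total counts were 1421551 to 2764417 in the AlkAniline-Seq libraries and 2783709 to 3258499 in the inputs. Among the inputs, shMETTL1 replicate 1 had reads at 311979 positions, against 72098 to 165105 in the others. Among the AlkAniline-Seq libraries, shscramble replicate 1 stood apart. It had a read at 99.9% of the deep positions (50 or more reads) of replicate 2 and at 100% of those of replicate 3. Whether it is a separate sample at such positions was not tested, and if it is not, the n, SD and standard errors given for 3 shscramble replicates overstate the number of samples behind them.

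POU2AF1 had 799, 223 and 5500 AlkAniline-Seq reads in shscramble replicates 1, 2 and 3. It had 19, 10 and 15 in shMETTL1 replicates 1, 2 and 3. Every shMETTL1 library was therefore below every shscramble library, and replicate 3 held 84.3% of the shscramble reads, or 96.1% without replicate 1.

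Scaled to 1000000 reads a library (CPM), the shscramble levels were 462, 85.0 and 3869, and the shMETTL1 levels were 7.56, 3.62 and 6.06. The lowest shscramble level was 11.2 times the highest shMETTL1 level. Within shscramble, replicate 3 was 45.5 times replicate 2 and 8.38 times replicate 1, a spread larger than that gap. The group means were 1472 ± 2084 CPM (SD, n = 3) in shscramble and 5.75 ± 1.99 CPM (SD, n = 3) in shMETTL1. Without replicate 1 the shscramble mean was 1977 ± 2676 CPM (SD, n = 2).

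The log2 fold change of shMETTL1 over shscramble was -7.94 (standard error 1.07) from edgeR, fitted over 11097 gene IDs with a median of 0.07. This standard error was derived from the F statistic of the fit, and nothing is read from it, since these libraries chose the gene. In log2 CPM the 3 shscramble replicates had an SD of 2.76. The fold change was -8.38 without shscramble replicate 1 and -5.39 without replicate 3, the library with the most reads. Gene IDs called lower by edgeR at an adjusted p under 0.05 made up 0.00901% of those tested. That share is POU2AF1 alone, so it is no background to the gene. As background, gene IDs with every shMETTL1 library below every shscramble library in CPM made up 8.43%, or 11.6% without shscramble replicate 1. Nothing is read from either share, since these libraries chose the gene. By log2 fold change POU2AF1 had rank 3 from the lowest of the tested gene IDs, and nothing is read from this rank for the same reason.

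**Figure D1:**
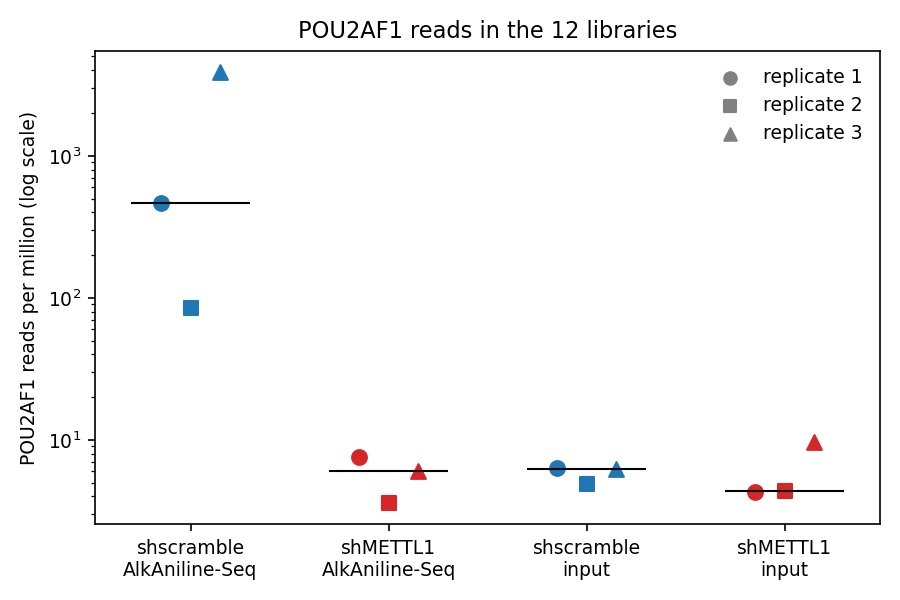
POU2AF1 CPM (vertical axis, log scale) in AlkAniline-Seq and input libraries of shscramble (blue) and shMETTL1 (red), with 1 point for each replicate and a line at the group median. The shscramble AlkAniline-Seq points lie between 85.0 and 3869, and the other 9 points between 3.62 and 9.70.

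Nearly all of these reads fell on 1 position, number 16 in the order of the files. Its AlkAniline-Seq counts were 799, 223 and 5497 across the shscramble replicates, against 17, 7 and 11 across those of shMETTL1. Its input counts were 18, 15 and 19 for shscramble, against 9, 13 and 24 for shMETTL1, so it was read in every library. It was the 7th most read position of shscramble replicate 3, the 50th of replicate 1 and the 790th of replicate 2.

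The other 15 positions together had 12 AlkAniline-Seq and 11 input reads, and none had more than 3 in any library. In AlkAniline-Seq, 3 of these reads were in shscramble, all in replicate 3, and 9 were in shMETTL1, where the replicates had 2, 3 and 4. In the inputs, 2 were in shscramble and 9 in shMETTL1, 5 of them in replicate 1. AlkAniline-Seq alone read 7 of the 15 positions, the input alone read 7, and both read 1. Only 1 of the 15, position 6, was read in more than 1 AlkAniline-Seq library, with 1 read in shscramble replicate 3 and 2 in shMETTL1 replicate 3. The difference between the groups was thus carried by position 16, and without it the gene had too few reads to be fitted.

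**Figure D2:**
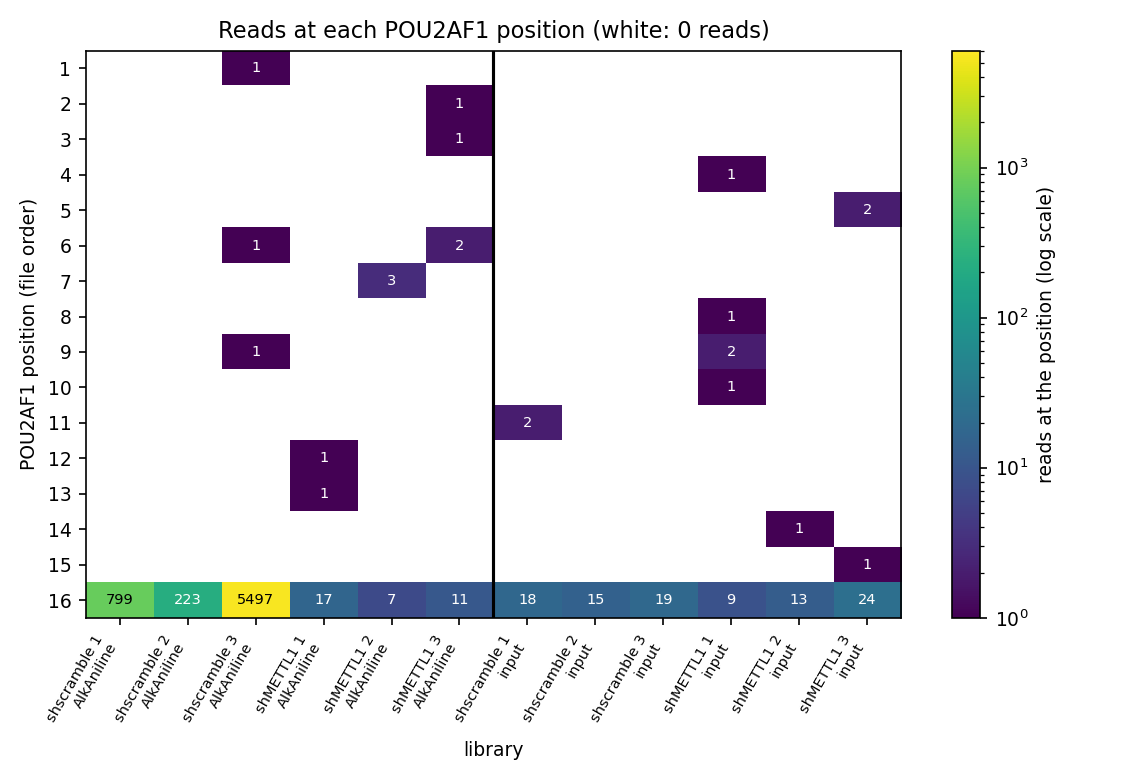
Reads at each of the 16 POU2AF1 positions (vertical axis, in file order) in each library (horizontal axis), with the count printed and coloured on a log scale, and white for 0 reads. Position 16 is filled in all 12 libraries and reaches 5497 reads, and no other cell is above 3.

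The share of reads at 1 position was set against other gene IDs. Position 16 held 99.8% of the 6566 AlkAniline-Seq reads of POU2AF1. Among the 3163 gene IDs with at least 1000 AlkAniline-Seq reads the median share of the top position was 15.1% and the 95th percentile 45.4%, and POU2AF1 had the highest share. It reached 1000 reads only through shscramble, so this is a description of the libraries in which it was chosen to be high. In shMETTL1, position 16 held 35 of 44 reads, or 79.5%, and of 1062 gene IDs with 30 to 60 reads there 30.2% had at least that share (median 58.3%). Library by library the share was 100%, 100% and 99.9% for shscramble, against 89.5%, 70.0% and 73.3% for shMETTL1. In the inputs position 16 also led, with 98 of 109 reads, or 89.9%. The median was 35.4% in the 2923 gene IDs with 50 to 200 input reads, and how many of them reached 89.9% was not counted. POU2AF1 had 16 positions against a median of 32 per gene ID, and these shares were not adjusted for the number of positions.

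**Figure D3:**
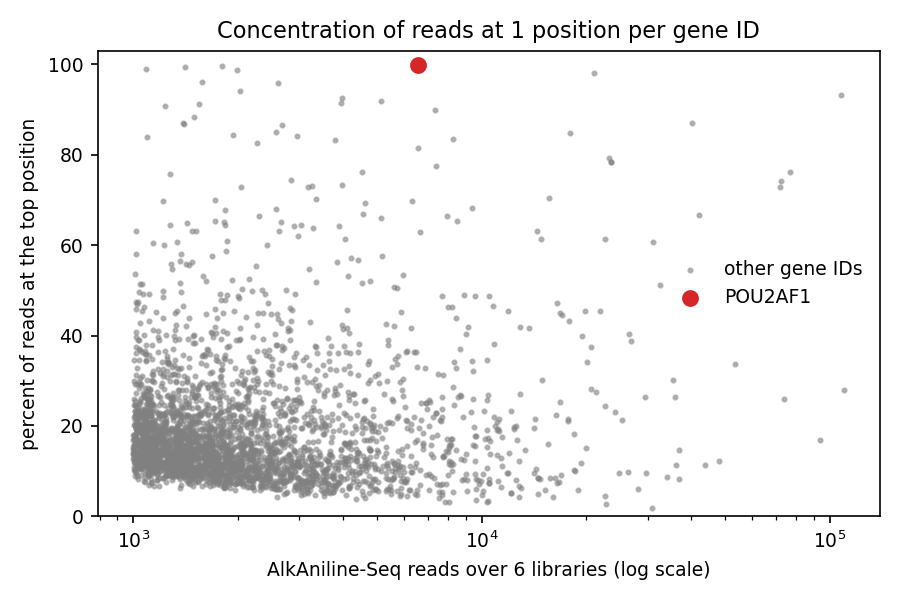
Percent of a gene ID's AlkAniline-Seq reads at its top position (vertical axis) against its reads over the 6 AlkAniline-Seq libraries (horizontal axis, log scale), for 3163 gene IDs with at least 1000 reads. POU2AF1, the red point, lies at 6566 reads and 99.8%, and the median share is 15.1%.

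The deposited coverage, the number of reads that span a position, was the same as the count at position 16 in every library but one. In shscramble replicate 3 it was 5498 against a count of 5497. But for that 1 read, all reads covering the position were counted at it, in AlkAniline-Seq and in input alike and in both groups. The fold of count over coverage against the input, as deposited, was accordingly 1 in 5 of the AlkAniline-Seq libraries and 0.9998 in shscramble replicate 3. On that measure the 6 libraries lay within 0.001 of each other, while their counts ran from 7 to 5497. Of 5336 positions read in all 12 libraries, 90 had at least 99.9% of their coverage at the position in every library, and POU2AF1 position 16 was among them.

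In the input the groups overlapped. POU2AF1 had 20, 15 and 19 input reads in shscramble, against 14, 14 and 27 in shMETTL1. In CPM the shscramble values were 6.34, 4.87 and 6.24, and the shMETTL1 values were 4.30, 4.36 and 9.70. The means were 5.82 ± 0.82 (SD, n = 3) and 6.12 ± 3.10 (SD, n = 3), a difference within the spread of the replicates (p = 1 by an exact permutation test, two-sided, whose smallest possible p is 0.1). In edgeR the log2 fold change was -0.24 (standard error 1.17, adjusted p = 0.99, 95% interval -2.71 to 2.23). Its sign is the reverse of that of the difference in mean CPM, which used no TMM scaling. The TMM factor of shscramble replicate 2 was 0.67, against 1.01 to 1.19 in the other inputs. The interval is wide, and it was not tested against the AlkAniline-Seq value of -7.94, which comes from the libraries that chose the gene. Of 11740 gene IDs tested in the input, 0% were called in either direction by edgeR, DESeq2 called 35, and the unadjusted edgeR p was under 0.05 for 735. Groups that do not overlap in CPM made up 13.7%. In bulk libraries such as these, a level does not tell the number of cells with the RNA from the RNA in each cell.

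Over all its positions, the input count of POU2AF1 was 100% of its input coverage in each shscramble replicate, against 93.3%, 100% and 100% in shMETTL1. The difference of -2.22 percentage points came from 1 read of replicate 1. With the other 5 libraries tied at 100%, a permutation test cannot separate the groups on this measure. Input reads at this gene were few, and the 95% Poisson interval of the count in shMETTL1 replicate 1, which covers counting error only, was 7.65 to 23.5 reads.

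Set beside its own input in CPM, POU2AF1 was 72.8, 17.4 and 620 times as high in AlkAniline-Seq for shscramble. In the shMETTL1 replicates it was 1.76, 0.83 and 0.62 times its input. In edgeR fitted over all 12 libraries, AlkAniline-Seq over input was at a log2 value of 7.59 in shscramble, or 8.07 without replicate 1, and 0.02 in shMETTL1. The shMETTL1 AlkAniline-Seq libraries, at 3.62 to 7.56 CPM, thus lay in the range of the inputs, at 4.30 to 9.70 CPM but for the lowest, and the shscramble AlkAniline-Seq libraries lay above it. The difference of these log2 values was -7.58 (standard error 1.22). That fit did not pair each AlkAniline-Seq library with its own input. With the pairing the difference was -6.01 (standard error 0.99). Nothing is read from either standard error, since the AlkAniline-Seq libraries chose the gene. In the unpaired fit the difference was -8.06 without shscramble replicate 1 and -4.99 without replicate 3. Of 12877 gene IDs, 0.00777% were called lower over the input by edgeR, a share that is POU2AF1 alone. Nothing is read from this share because the gene was chosen on the same libraries.

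The count of shscramble replicate 1 at position 16 was set against its share of replicates 3 and 2 at other positions. Over 4210 positions deep in replicate 3 and unread in replicate 2, the count in replicate 1 had a median of 14.7% of that in replicate 3 and lay between 7.41% and 26.6% from the 5th to the 95th percentile. At POU2AF1 position 16, which is read in replicate 2 and so is not one of these, it was 14.5%. Over 9964 positions deep in replicate 2 and unread in replicate 3, the median share of replicate 2 was 10.6%. Position 16 is read in replicate 3 and so is not one of these either, and its share of replicate 2 was 358%. Applied to the 5497 and 223 reads of replicates 3 and 2, these 2 medians give 832 reads, and replicate 1 had 799. Where these shared positions come from was not tested, and without replicate 1 the shscramble values are the 223 and 5497 reads of replicates 2 and 3.

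Replicate 2 had a read at 51.2% of the 8624 deep positions of replicate 3. Of 2805 positions deep in replicate 3 and unread in every shMETTL1 library, 22.0% had a read in replicate 2, with a median of 0% and a 95th percentile of 3.57% of the replicate 3 count. At POU2AF1 position 16, which is read in shMETTL1 and so is not one of these, the share was 4.06%. The reads in replicate 3 were also uneven beside other positions. Of 228 positions with at least 1000 reads over the shscramble libraries, the library with the most held a median of 50.5%, against 84.3% at POU2AF1, and 4 positions including this one reached that share. Without replicate 1 the median was 67.9% over 147 positions, against 96.1% at POU2AF1, and again 4 reached it. Of all positions, 2 had at least 100 reads in every shscramble library and a lowest shscramble CPM over 10 times the highest of shMETTL1, POU2AF1 position 16 being one, and 3 had the reverse pattern. Without shscramble replicate 1 these numbers were 12 and 12. Nothing is read from the place of position 16 among them, since these libraries chose the gene.

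**Figure D4:**
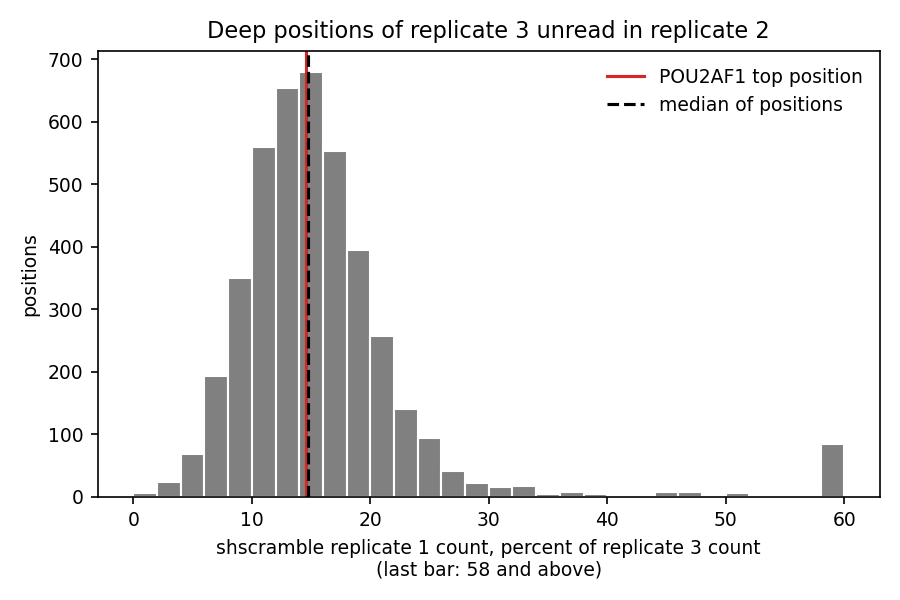
Number of positions (vertical axis) by the count in shscramble replicate 1 as a percent of that in replicate 3 (horizontal axis), over 4210 positions deep in replicate 3 and unread in replicate 2, the last bar holding all from 58 up. The dashed line is the median, 14.7%, and the red line is POU2AF1 position 16, at 14.5%. Position 16 is read in replicate 2 and so is not among the positions counted.

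The gene IDs most like POU2AF1 across the 6 AlkAniline-Seq libraries were found by Pearson's r of log2 CPM with 1 added, over 11097 gene IDs. The 5 highest lay between 0.990 and 0.998, and the points share the same libraries and the positions read in both shscramble replicates 1 and 3. The most alike, ENSG00000169223, had 311, 359 and 341 reads in shscramble and 226, 221 and 224 in shMETTL1, a smaller difference between the groups. The next, ENSG00000115353, had 55, 22 and 189 reads against 5, 2 and 5. Without shscramble replicate 1, r was 0.998 and 0.996 for these 2 IDs. They were picked for their likeness, so their pattern is no separate result. The files pair neither ID with a symbol.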

How the data were processed

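Per the submitters' processing notes, reads were handled with cutadapt 1.9.1, Bowtie2 2.2.4 and bedtools 2.24 on hg19. Their roles, the read filters and the annotation are not stated in what was read here. The deposited counts are whole reads at, and covering, each position. The authors also deposited a fraction (count over coverage) and a ratio of this fraction to its input counterpart, and both were recomputed at every position with 0 differing beyond 1e-06. Where the input fraction is 0, and the other is not, the ratio is the fraction plus 1.

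Counts were summed per gene ID and fitted with edgeR 4.0.16 in R 4.3.3 (TMM, quasi-likelihood test, minimum count 10, minimum total 15, Benjamini-Hochberg threshold 0.05). The fit was also run on simulated counts, and the outcome is not given here. AlkAniline-Seq over input was the interaction over 12 libraries, with no pairing of the libraries of a sample. Standard errors of edgeR values were the absolute log2 fold change divided by the square root of the F statistic of its test. CPM used each library's total count, without TMM. DESeq2 1.42.0 was an alternative, with Python 3.11.15 for tables.

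The reference table pairs none of its 59792 genes with an Ensembl ID. The symbol POU2AF1 came with the choice of gene, and lists of octamer partners, chromosome 11 neighbours, B cell and prostate markers could not be looked up. Genes were to be named from these lists or as the 5 most alike by Pearson's r. Members and lists were chosen with earlier results of these data known. The methods say in general terms that replicates were biological.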

Additional observations from a re-analysis of the deposited data

How the results depend on the processing

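The POU2AF1 log2 fold change stayed below 0 in AlkAniline-Seq and over the input under all 12 alternatives that gave a value. Without any one replicate it lay between -8.47 and -5.39 in AlkAniline-Seq and between -8.24 and -4.99 over the input. Nothing is read from its sign, since the gene was chosen for lower counts in these libraries. In shscramble alone, AlkAniline-Seq over input was 4.998 without shscramble replicate 3. In the input the log2 fold change was 0.072 with library size alone, the reverse of -0.24, and -0.76 to -0.01 without any one replicate, with no adjusted p under 0.907 in any setting of edgeR or DESeq2. The percent of coverage differed by -3.33 to 0 points without any one replicate. The input with a minimum count of 20, and every fit without position 16, gave no value for the gene.

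Gene IDs called in AlkAniline-Seq numbered 1, and 2 with library size alone, 178 with DESeq2, 19 without a filter, 0 with the top position per gene and 0 to 3 without any one replicate: 3 without shscramble replicate 1 or 2, and 0 without shscramble replicate 3 or any shMETTL1 replicate. Over the input 1 gene ID was called, with 96 by DESeq2, 31 without a filter, 1 without shscramble replicate 2 and 0 without any other single replicate. In the input they numbered 0, and 35 with DESeq2, 95 without a filter and 0 to 0 without any one replicate. Within an assay, deviations of same-numbered shscramble and shMETTL1 libraries had correlations of -0.02 to 0.05. Those of differently numbered libraries were -0.06 to 0.04. Whether the numbers pair samples across the 2 groups was not tested beyond these values. With the replicate number as a block, 3 gene IDs were called in AlkAniline-Seq and 2 in the input. POU2AF1 was then at -6.50 in AlkAniline-Seq and -0.35 in the input. Over the input the block was the sample, which pairs each AlkAniline-Seq library with its own input, and POU2AF1 was at -6.01. Values without shscramble replicate 1 that are no fold changes, and the shares within shMETTL1, were added after seeing the data. Depth limits the input, where the gene had 14 to 27 reads a library.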
